A study of Arabidopsis thaliana with 128 samples.

Results

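The decline of each transcript after a block of transcription was compared between vcs sov seedlings, which carry a mutation in VARICOSE, and sov seedlings, which do not, over 48 of the 128 libraries of the study. These are the libraries of both genotypes at 0, 7.5, 15, 30, 60 and 120 min in 4 biological replicates, chosen by genotype and time alone. They form 4 time courses per genotype, and each course gave 1 slope per gene. Per the labels, sov is the Arabidopsis thaliana accession Col-0 itself, and vcs sov carries the vcs-7 allele in Col-0. Both therefore share the sov allele of Col-0. The other pair of genotypes, WT and vcs, holds in addition a copy of SOV from the accession Landsberg erecta, written [SOV-L.er] in the labels. WT is then Col-0 [SOV-L.er] and vcs is vcs-7 [SOV-L.er]. All were whole seedlings of 5 d grown at 22 °C in constant light on 0.5X MS medium with 0.5% sucrose. For each genotype and replicate, 50 to 60 seedlings were infiltrated under vacuum with 1 mM cordycepin, an adenosine analogue that ends RNA chains early, so each library is a pool of seedlings. Each mutation is represented by a single line.

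Cytoplasmic mRNA is degraded mainly after its poly(A) tail has been shortened, by either of 2 routes. In one, decapping enzymes remove the cap and the exoribonuclease XRN4 digests the body from the 5' end. In the other, the exosome or the exoribonuclease SOV, a plant DIS3L2, digests it from the 3' end. VARICOSE (VCS, AT3G13300) is the scaffold of the decapping complex that holds DCP1 and DCP2. SOV (AT1G77680) was first found because its allele changes how severe vcs mutants are, and the Col-0 allele lacks activity. The comparison therefore asks how transcripts decline with and without VCS where SOV is inactive in both.

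Reads in genes numbered 12.9 to 37.3 M per library (median 23.1 M), so 3 reads, the upper limit allowed by a count of 0, equalled 0.0803 to 0.232 RPM, the deposited unit of reads scaled to a common library total. Nuclear genes took 51.25% ± 0.93 (SD, n = 4) of reads in sov at 0 min and 73.46% ± 1.66 in vcs sov. At 120 min the shares were 44.34% ± 1.53 and 70.18% ± 3.30. RPM levels of nuclear transcripts are therefore not on the same footing in the 2 genotypes, whereas a slope compares libraries of 1 course. Organ markers were detected in both genotypes, some of them at low levels. A mean of 1 RPM at 0 min was reached by 1 of 6 meristem and organ boundary genes in sov and 3 in vcs sov. For the 9 stomatal lineage genes these counts were 6 and 3, and for the 20 root iron uptake genes 14 and 17. The 44 listed nuclear genes for photosystem proteins and the Rubisco small subunit summed at 0 min to 51160 to 69240 RPM in sov and 33390 to 38830 RPM in vcs sov. The sum of 11 xylem and secondary wall genes was 96.9 to 120.4 RPM against 289 to 518 RPM, and that of 7 root hair genes was 15.0 to 19.7 RPM against 41.0 to 50.9 RPM. The 9 stomatal lineage genes summed to 24.6 to 32.3 RPM against 14.5 to 24.2 RPM, the 6 meristem and organ boundary genes to 5.54 to 9.24 RPM against 24.1 to 31 RPM, and the 4 phloem genes to 109.2 to 121.2 RPM against 90.4 to 148.7 RPM. The 20 root iron uptake genes summed to 830 to 1004 RPM against 821 to 1798 RPM, and 1 of them was at 0 in all 4 vcs sov libraries; no other listed marker was at 0 in all 4 libraries of a genotype. Fewer cells of a type and less RNA per cell cannot be told apart in whole seedlings, and the part of tissue make-up in the slopes was not tested.

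The targeted gene separated the labels in every library. VCS stood at 61.7, 67.2, 70.4 and 67.4 RPM in the 4 sov courses at 0 min and at 9.38, 8.72, 9.80 and 8.62 RPM in vcs sov. Its transcript also declined faster in the mutant. In sov 97.0%, 95.3%, 88.4% and 88.5% of the 0 min level was left at 120 min, and in vcs sov 44.9%, 34.8%, 29.6% and 33.2%. The slopes did not overlap, and the difference was -0.73 ± 0.07 log2 units per h (SE; limma adjusted p = 6.0e-06). SOV itself was higher in vcs sov, at 182 ± 14.9 RPM against 21.0 ± 4.95 RPM at 0 min (SD, n = 4). Its transcript declined with a half-life of 66.2 min in sov and 102.8 min in vcs sov, a slope difference of 0.32 ± 0.08 (SE; limma adjusted p = 0.0037). With every course centred on its median gene, that difference was 0.14 and no longer passed (adjusted p = 0.18). VCR, the neighbouring near-identical copy of VCS, differed in slope by 0.06 ± 0.04 and was not called (adjusted p = 0.30). Reads may have been divided between VCS and VCR in the counting.

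Transcripts declined more slowly in vcs sov. Each library was scaled to 50 reference genes, those with the highest slopes of unscaled RPM in both genotypes. That their levels are stable was assumed and not tested, and absolute slopes and half-lives rest on it. The median gene then had slopes of -0.484, -0.575, -0.508 and -0.509 log2 units per h in the 4 sov courses. In the vcs sov courses the medians were -0.312, -0.351, -0.305 and -0.386. The groups did not overlap, and their means of -0.519 ± 0.039 and -0.339 ± 0.037 (SD, n = 4) correspond to half-lives of 115.6 and 177.2 min. The difference of 0.18 had p = 0.0286 in a two-sided exact permutation test, the smallest value that 4 against 4 courses allow. At 120 min the median gene retained 46.1% to 50.4% of its 0 min level in the sov courses and 58.1% to 67.0% in the vcs sov courses. The fit covered 15735 genes whose mean 0 min level reached 2 RPM in both genotypes. Of these, 7561 (48.1%) had a less negative slope in vcs sov and 411 (2.61%) a more negative one (50.7% in either direction; limma, Benjamini-Hochberg adjusted p under 0.05). The slopes of the 4 vcs sov courses all lay on one side of the 4 sov courses for 45.2% of genes, above them for 43.1% and below them for 2.08%. This balance depended on the scaling: 94.8% of the calls were less negative with the reference genes, 89.0% on RPM of nuclear genes alone, and 48.9% when each course was centred on its median gene (3121 less and 3257 more negative). Centring removes the difference of the course medians, 0.18 log2 units per h, and leaves a median gene difference of -0.014.

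**Figure D1:**
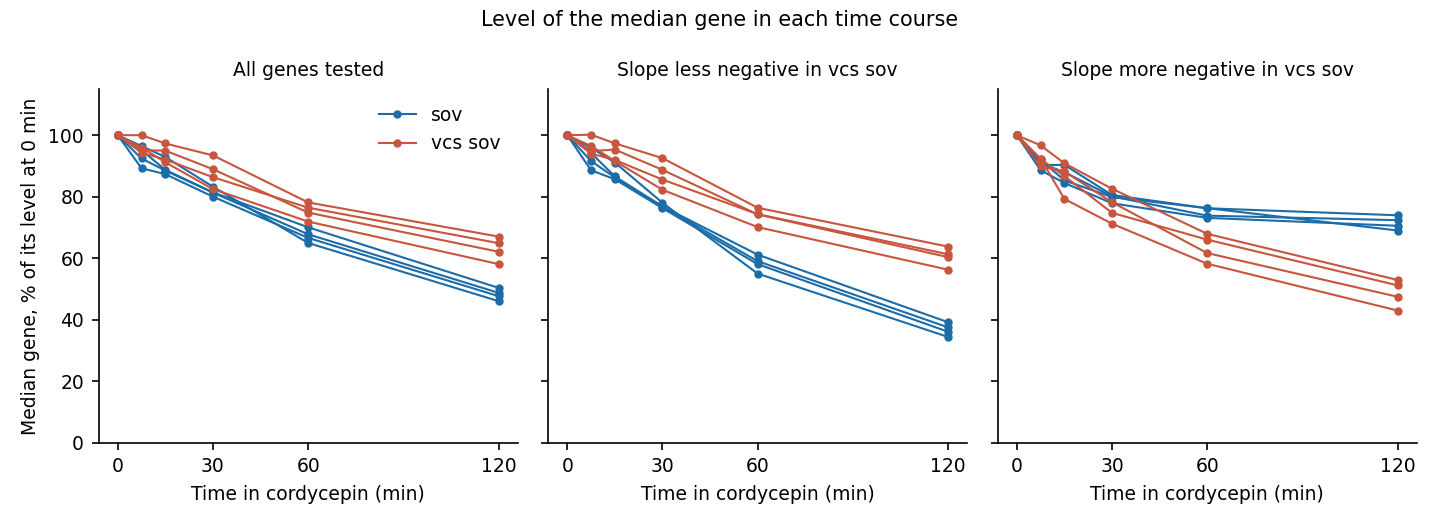
Level of the median gene as a percent of its level at 0 min (y axis, after scaling to the reference genes) against time in cordycepin in min (x axis), 1 line per course, for all 15735 genes, the 7561 genes with a less negative slope in vcs sov and the 411 with a more negative slope. At 120 min the 4 sov courses lie at 46.1% to 50.4% and the 4 vcs sov courses at 58.1% to 67.0% over all genes; the classes of the other panels were chosen on these same slopes.

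The spread of decay rates was narrower in the double mutant. The interquartile range of the gene slopes was 0.486 log2 units per h in sov and 0.296 in vcs sov. In sov 56 genes had a half-life under 30 min, against 7 in vcs sov. Half-lives of 30 to 60 min were found for 1975 genes in sov and 403 in vcs sov, and of 240 min or more for 2791 and 4946 genes. A slope rose by at least 0.5 log2 units per h among 1577 called genes and fell by at least that much among 62.

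**Figure D2:**
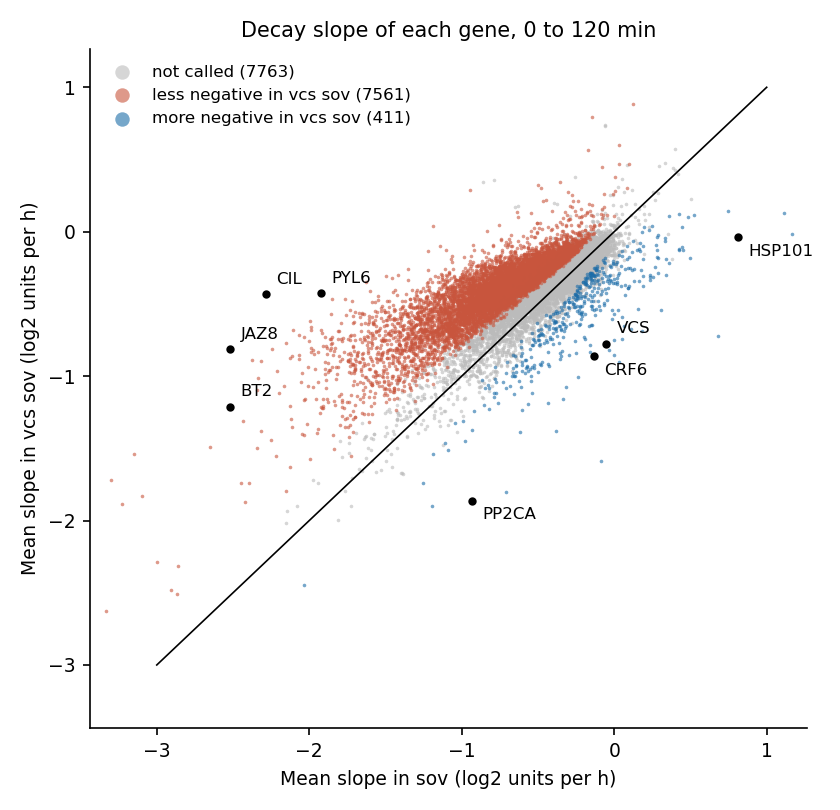
Mean slope of each of 15735 genes over 0 to 120 min in sov (x axis) and vcs sov (y axis), in log2 units per h, coloured by the limma call at an adjusted p of 0.05; the line marks equal slopes. The 7561 less negative genes lie above the line and the 411 more negative ones below it, and 8 genes described in the text are marked.

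The half-life of a gene in WT, measured in libraries outside the comparison, went with how often its slope changed. Of 45 genes with a WT half-life under 30 min, 40 (88.9%) had a less negative slope in vcs sov than in sov. Their median half-life was 26.6 min in sov and 41.6 min in vcs sov. Of 1417 genes between 30 and 60 min, 85.0% were less negative, with median half-lives of 45.9 and 78.7 min. The share was 70.8% of 5298 genes between 60 and 120 min and 45.0% of 4748 genes between 120 and 240 min. Among 3933 genes of 240 min and over it was 10.7%, and their median slopes were -0.213 and -0.176 log2 units per h. The 294 genes that did not fall in WT showed the reverse, with 3.40% less negative and 29.6% more negative. These shares concern absolute and not proportional change of the slope.

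**Figure D3:**
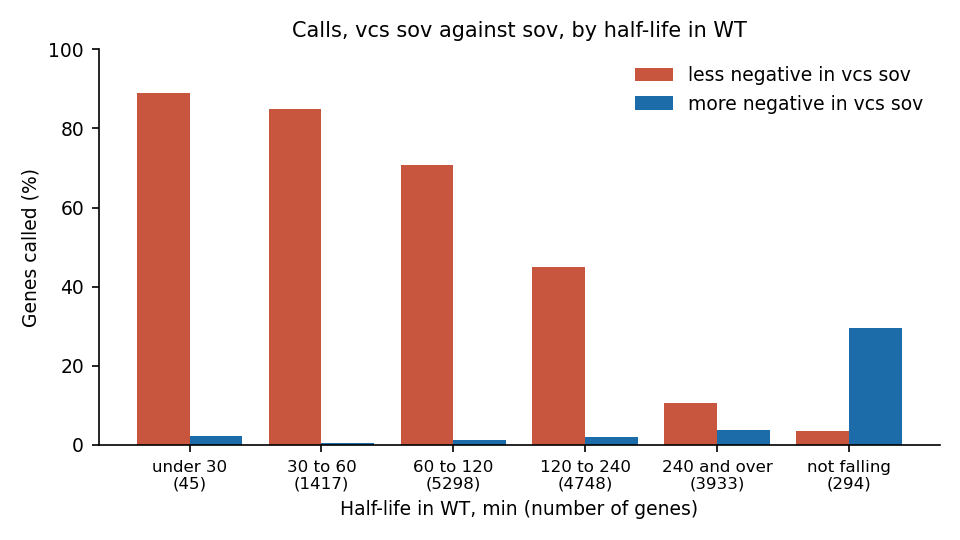
Percent of genes called less negative or more negative in vcs sov than in sov (y axis) by half-life class in WT in min (x axis, with the number of genes in each class). The less negative share goes from 88.9% in the shortest class to 3.40% among genes that did not fall, and the more negative share is highest, 29.6%, among the latter.

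The share of changed genes also varied with abundance and, less, with gene structure. Among 1197 genes of at least 100 RPM 23.8% were less negative, with a median difference of 0.041 log2 units per h, against 56.7% of 3775 genes of 10 to 20 RPM, with a median difference of 0.203. Genes with 1 coding exon declined faster in sov, with a median half-life of 90.11 min over 2289 genes, than genes with 9 or more, with 137.2 min over 4186 genes. The less negative share was 51.2% in the first class and 44.3% in the second, and the more negative share was 4.85% and 1.29%. By coding length the less negative share lay between 43.0%, in the shortest of 5 classes, and 51.0%. Organelle transcripts differed from nuclear ones in their counts. Of 114 plastid genes 10 were less negative and 36 more negative, and their median half-life was 278 min in sov and 185.3 min in vcs sov. These rest on median slopes of -0.216 and -0.324 log2 units per h relative to nuclear reference genes. The median unscaled slopes of those reference genes were 0.219 in sov and 0.226 in vcs sov, so the sov fall is about the size of the scaling. Whether cordycepin stops transcription in organelles was not tested. Of 62 mitochondrial genes 2 were less and 1 more negative, whereas of 15559 nuclear genes 7549 were less and 374 more negative.

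Among the genes eligible to be named, the largest rise in slope belonged to CIL (AT4G25990), a relative of the chloroplast import regulator CIA2. Eligible were called nuclear genes with a symbol, at least 5 RPM at 0 min in both genotypes and courses that did not overlap. CIL stood at 13.9, 11.5, 19.8 and 20.9 RPM in sov at 0 min and at 22.8, 11.9, 12.04 and 12 RPM in vcs sov. At 120 min 6.81%, 4.16%, 4.56% and 3.57% was left in sov, and 63.2%, 59.7%, 52.1% and 47.2% in vcs sov. The starting levels overlapped and the remaining shares did not. The half-life was 26.3 min in sov and 138.2 min in vcs sov, and the slope difference was 1.85 ± 0.09 (SE; limma adjusted p = 1.8e-07).

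BT1 and BT2 encode BTB-domain scaffold proteins with a TAZ zinc finger that bind calmodulin. BT1 kept 3.71%, 4.34%, 3.03% and 3.79% of its level at 120 min in sov and 25.0%, 26.8%, 22.5% and 23.9% in vcs sov. These values hardly varied within a genotype, and the half-life was 25.7 min against 59.2 min (difference 1.32 ± 0.06, SE; limma adjusted p = 1.1e-07). BT2, the steepest of all named nuclear genes of at least 20 RPM in sov, had slopes of -2.14, -2.68, -2.76 and -2.48 there and of -1.21, -0.98, -1.28 and -1.37 in vcs sov. BT4 and BT5 also rose in slope, by 0.82 and 0.69 log2 units per h. BT3 moved by 0.08 (adjusted p = 0.47), so 4 of 5 members were called less negative and none more negative.

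The 12 largest rises among the eligible genes also held PYL6, JAZ7 and JAZ8 and 6 genes of other families. AT5G08330, a TCP factor listed as TCP11 in RefSeq and known as the clock regulator CHE, had slopes of -1.88 to -2.10 in sov and of -0.77 to -0.45 in vcs sov. Its half-life was 30.1 min against 97.0 min (difference 1.37 ± 0.08, SE; limma adjusted p = 3.6e-07). CGA1, a GATA factor induced by cytokinin and light, went from 25.9 to 66.8 min. BEE2, a bHLH factor of brassinosteroid responses, went from 28.2 to 68.6 min, and EXL5, an exordium-like protein, from 37.4 to 147.1 min. MAKR6, a membrane-associated kinase regulator, went from 29.5 to 82.4 min, and BZIP34 had a difference of 1.25 ± 0.11. In all 6 of these genes the vcs sov slopes lie above the sov slopes in every course, which the choice of the genes required.

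**Figure D4:**
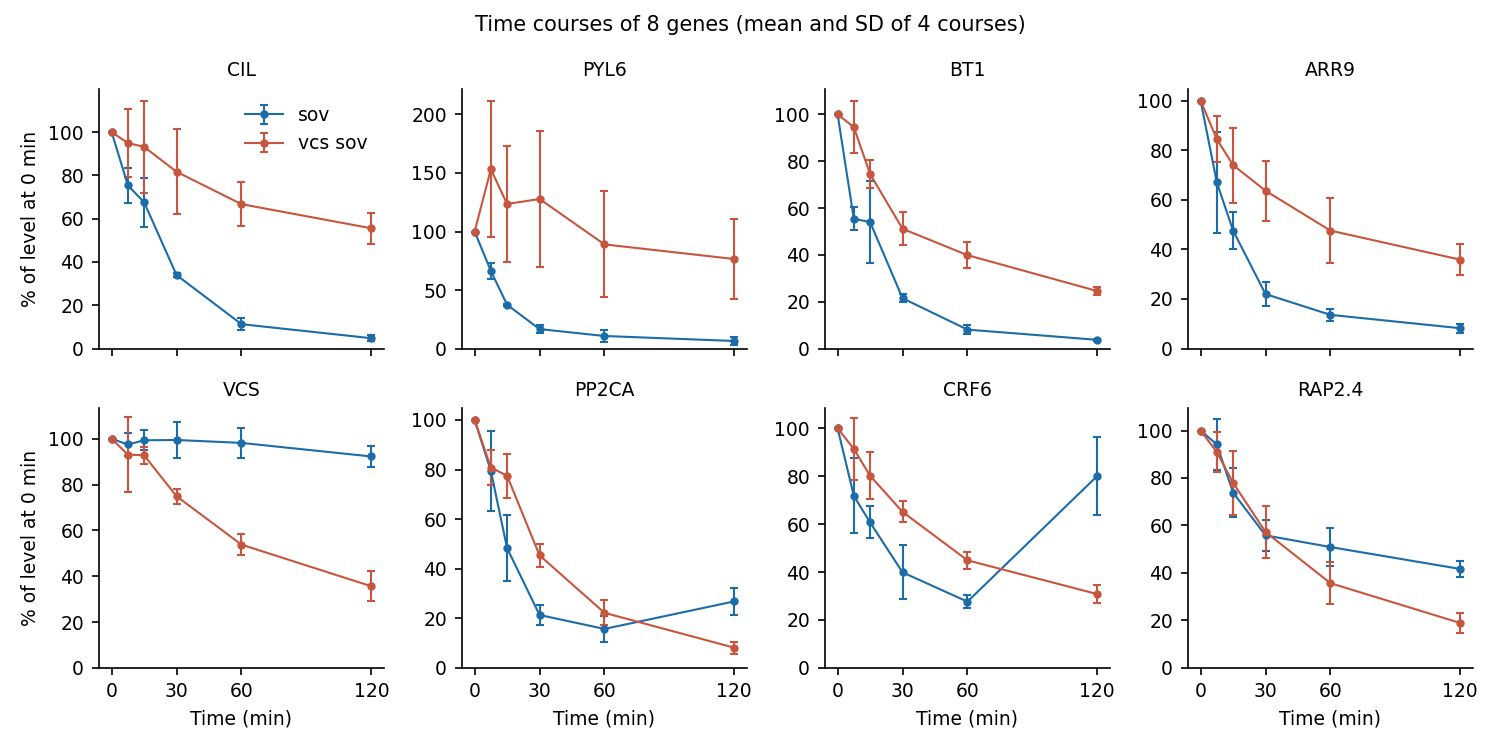
Level as a percent of that at 0 min (y axis, mean and SD of 4 courses, after scaling to the reference genes) against time in cordycepin in min (x axis) for 4 genes with a less negative and 4 with a more negative slope in vcs sov. CIL, PYL6, BT1 and ARR9 stay higher in vcs sov; VCS and RAP2.4 end lower; PP2CA and CRF6 first decline faster in sov and then stand higher there at 120 min than at 60 min.

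In the families of hormone signalling, not all listed members reached 2 RPM in both genotypes. Tested were 6 of 10 type-A response regulators, 11 of 12 JAZ, 18 of 29 AUX/IAA and 8 of 9 receptors of abscisic acid. So were 5 of 9 phosphatases 2C and 5 of 6 cytokinin response factors. List median half-lives in sov ran from 35.04 min for the response regulators to 582.6 min for the phosphatases, against 115.4 min over all genes. All 6 type-A response regulators tested, the ARR proteins that damp cytokinin signalling, rose in slope, with a list median of 35.04 min in sov and 62.3 min in vcs sov. ARR9 kept 7.99%, 10.7%, 6.24% and 7.82% at 120 min in sov and 42.6%, 40.0%, 30.96% and 29.9% in vcs sov (slope difference 1.01 ± 0.06, SE; limma adjusted p = 4.5e-07). ARR5 rose least of the 6, by 0.33 log2 units per h, from a half-life of 41 to 52 min. The background over all genes was 48.1% less negative with a median difference of 0.166. Among genes with a WT half-life of 30 to 60 min these values were 85.0% and 0.557. Whether the short-lived families exceed other genes of like half-life was not tested.

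Of 11 tested JAZ genes, whose proteins repress jasmonate responses, 10 rose in slope and none fell. JAZ8 stood at 19, 8.62, 2.09 and 3.86 RPM in sov at 0 min and was listed at 0.733, 0, 0.102 and 0.349 RPM at 120 min. Its sov slopes of -2.49, -3.26, -2.39 and -1.94 therefore rest on few reads and on the pseudocount of 0.1 RPM, and the vcs sov slopes were -0.83, -0.47, -0.60 and -1.36. The difference was 1.71 ± 0.25 (SE; limma adjusted p = 0.00026). JAZ7 rose by 1.24 and JAZ6 by 0.97 log2 units per h. JAZ3 differed by 0.04 (adjusted p = 0.65), with half-lives of 79 and 83 min.

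Of 18 AUX/IAA genes, repressors of auxin responses, 13 rose in slope and none fell. IAA1 kept 7.57%, 5.58%, 8.42% and 9.98% at 120 min in sov and 39.1%, 28.6%, 32.2% and 26.5% in vcs sov (slope difference 1.08 ± 0.11, SE; limma adjusted p = 1.0e-05). In sov IAA1 stood at only 2.38 to 4.00 RPM at 0 min and 0.227 to 0.358 RPM at 120 min. Its sov shares therefore rest on few reads and on the pseudocount of 0.1 RPM. IAA2 rose by 0.69, SHY2 (IAA3) by 0.63 and IAA18 by 0.56 log2 units per h. The 5 members not called include slow ones: IAA9 had half-lives of 585 and 364 min and IAA8 of 741 and 1152 min.

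Genes of the abscisic acid pathway differed in direction by role. Of 8 tested receptor genes of the PYR/PYL family, 7 rose in slope and none fell, and the list median half-life was 40.2 min in sov and 107.5 min in vcs sov. PYL6 stood at 20.13, 19.5, 29.3 and 27.6 RPM in sov at 0 min and at 11.6, 7.44, 4.32 and 3.08 RPM in vcs sov. At 120 min the levels were 1.94, 1.09, 4.14 and 1.36 RPM against 6.34, 5.98, 5.43 and 5.09 RPM. The deposited RPM of the 2 genotypes did not overlap at either time, but RPM levels are not on the same footing in them. Its half-life was 31.2 min against 141.3 min (difference 1.5 ± 0.18, SE; limma adjusted p = 4.8e-05). PYL5 kept 9.15% to 15.4% in sov and 46.2% to 62.8% in vcs sov. PYL4 rose by 0.90 and PYL8 (RCAR3) by 0.85 log2 units per h, and PYL9 differed by -0.05 (adjusted p = 0.65).

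The clade A protein phosphatases 2C, which PYR/PYL receptors inhibit when bound to abscisic acid, moved the other way: 3 of 5 fell in slope and none rose. The background of more negative calls over all genes was 2.61%. PP2CA stood at 12.4, 11.9, 9.77 and 10.1 RPM in sov at 0 min, then at 1.13, 2.48, 1.97 and 2.49 RPM at 60 min and at 3.15, 4.94, 3.52 and 4.50 RPM at 120 min. In vcs sov it fell throughout, from 63.7, 86.3, 70.3 and 74.9 RPM to 9.95, 7.59, 7.05 and 7.49 RPM. Its slope over 120 min was lower in vcs sov by 0.93 (difference -0.93 ± 0.09, SE; limma adjusted p = 9.8e-06). Over the first 60 min alone the difference had the opposite sign, 0.62 (adjusted p = 0.062). ABI1 held its level in sov, with slopes of 0.10, 0.06, -0.17 and 0.01, and declined in vcs sov, with slopes of -0.40, -0.64, -0.55 and -0.68. It started at 9.62 to 15.3 RPM in sov and 114.7 to 167.4 RPM in vcs sov. Over 0 to 60 min its difference of -0.38 did not pass (adjusted p = 0.062). ABI2 fell by 0.26 log2 units per h (adjusted p = 0.040), and had a difference of 0.04 over 0 to 60 min; its courses overlapped, and 6 of the 8 fits that each left out 1 course lost the call, with differences of -0.33 to -0.17.

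The cytokinin response factors, AP2/ERF factors downstream of cytokinin, were divided. Of 5 tested, CRF2 and CRF3 rose in slope, CRF5 and CRF6 fell, and CRF4 was not called. Over all genes tested 48.1% were called less and 2.61% more negative. CRF6 stood at 4.51, 4.87, 8.48 and 6.11 RPM in sov at 0 min, at 1.35, 1.77, 2.39 and 2.25 RPM at 60 min and at 5.68, 6.25, 6.79 and 6.81 RPM at 120 min. In vcs sov the same times gave 26.7 to 33.8, 16.4 to 18.7 and 12.1 to 13.9 RPM. Each sov course of CRF6 was higher at 120 than at 60 min, and each vcs sov course was lower. The 120 min slope difference was -0.73 ± 0.07 (SE; limma adjusted p = 7.7e-06), whereas over 0 to 60 min it was 0.63 (adjusted p = 0.0012). CRF5 followed the same pattern, with -0.56 ± 0.10 over 120 min and 0.76 over 60 min (adjusted p = 0.0034). CRF2 rose by 0.85, from a half-life of 40 to 93 min.

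Such returns were frequent among the 411 genes with a more negative slope. In sov 141 of them (34.3%) had a higher mean level at 120 than at 60 min, against 3.07% of all genes tested, and in vcs sov 26 did. The median more negative gene stood at 69.0% to 74.0% of its 0 min level at 120 min in the sov courses and at 43.0% to 52.9% in vcs sov. Over 0 to 60 min 69 of the 411 had a positive difference, 92 were still called more negative and 3 were called less negative. Of the 7561 less negative genes, 2980 were called less negative by limma over 0 to 60 min and 0 more negative. These genes were chosen on the 120 min slope that contains the shorter window, so the counts are descriptions. New transcription and stability were not separated by the assay, and their parts in a returning level were not tested.

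Other genes with a large fall in slope followed different courses. RAP2.4, an AP2/ERF factor of drought and light responses, stood at 41.7, 44.4, 61.8 and 48.4 RPM in sov at 0 min and at 480.4, 441.8, 510.5 and 575.1 RPM in vcs sov. At 120 min 46.0%, 41.9%, 38.3% and 40.5% was left in sov and 25.2%, 17.37%, 17.9% and 15.2% in vcs sov. The half-life was 98.9 min against 48.6 min (difference -0.63 ± 0.06, SE; limma adjusted p = 7.3e-06), and over 0 to 60 min the difference was -0.52 (adjusted p = 0.026). MYB59 started at 5.01 to 7.81 RPM in sov and 32.5 to 65.5 RPM in vcs sov and went from a half-life of 50.3 to 31.6 min; over 0 to 60 min its difference of -0.62 did not pass (adjusted p = 0.22). PUB29, a U-box ubiquitin ligase, fell by 0.68 log2 units per h (difference -0.68 ± 0.10). PPCK1, a kinase of phosphoenolpyruvate carboxylase, had positive slopes of 0.20 to 0.63 in sov and slopes of -0.33 to 0.01 in vcs sov. ZCF37 (difference -0.57 ± 0.07) and CPUORF47 (-0.49 ± 0.09) were also among the 12 largest falls of eligible genes, with VCS and KIN1. CPUORF47 did not pass over 0 to 60 min (adjusted p = 0.098).

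Genes of dehydration and cold responses were called in the more negative direction. Of 6 tested genes of dehydration and cold responses, 5 fell in slope and none rose, where 2.61% of all genes tested fell. The 5 include KIN2, which also served as a reference gene assumed stable. KIN1 and KIN2 did not fall in WT, and among all such genes 29.6% were more negative. COR47 and ERD14 had WT half-lives of 436 and 303 min, and at 240 min and over the share was 3.86%. The 6 further members of the list did not reach 2 RPM in both genotypes. KIN1, a small cold-induced protein, went in sov from 4.11, 6.50, 7.65 and 5.26 RPM to 13.8, 19.8, 26.2 and 12.8 RPM at 120 min. In vcs sov it began at 54.2, 78.5, 73.3 and 81.0 RPM and stood at 84.8, 94.0, 97.8 and 72.6 RPM. The slope difference was -0.54 ± 0.10 (SE; limma adjusted p = 0.00095), and over 15 to 120 min it was -0.16 and did not pass (adjusted p = 0.47). KIN2 was 1 of the 50 reference genes, and its difference of -0.40 was -0.0043 over 15 to 120 min. The dehydrin genes COR47 and ERD14 had half-lives of 456 and 427 min in sov and 111 and 126 min in vcs sov.

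Among the 5 tested of 16 listed heat shock protein genes 2 fell in slope, where 2.61% of all genes tested fell. These 2, HSP101 and HSP70, did not fall in WT, and among all such genes 29.6% were more negative. HSP101, a disaggregase, had slopes of 0.77, 0.94, 0.27 and 1.26 in sov and of 0.07, 0.32, -0.23 and -0.32 in vcs sov, so the groups overlapped (difference -0.85 ± 0.19, SE; limma adjusted p = 0.0035). HSP70 had slopes of 0.32, 0.28, -0.21 and 0.55 in sov and of -0.15, -0.34, -0.35 and -0.50 in vcs sov; these overlapped too, and the 0 to 60 min difference of -0.35 did not pass (adjusted p = 0.19). HSP90.1 had a difference of -0.35 and was not called (adjusted p = 0.12). Positive slopes of single genes depend on the reference genes, whose own unscaled slopes were 0.178 to 0.564 in sov and 0.179 to 0.551 in vcs sov.

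**Figure D5:**
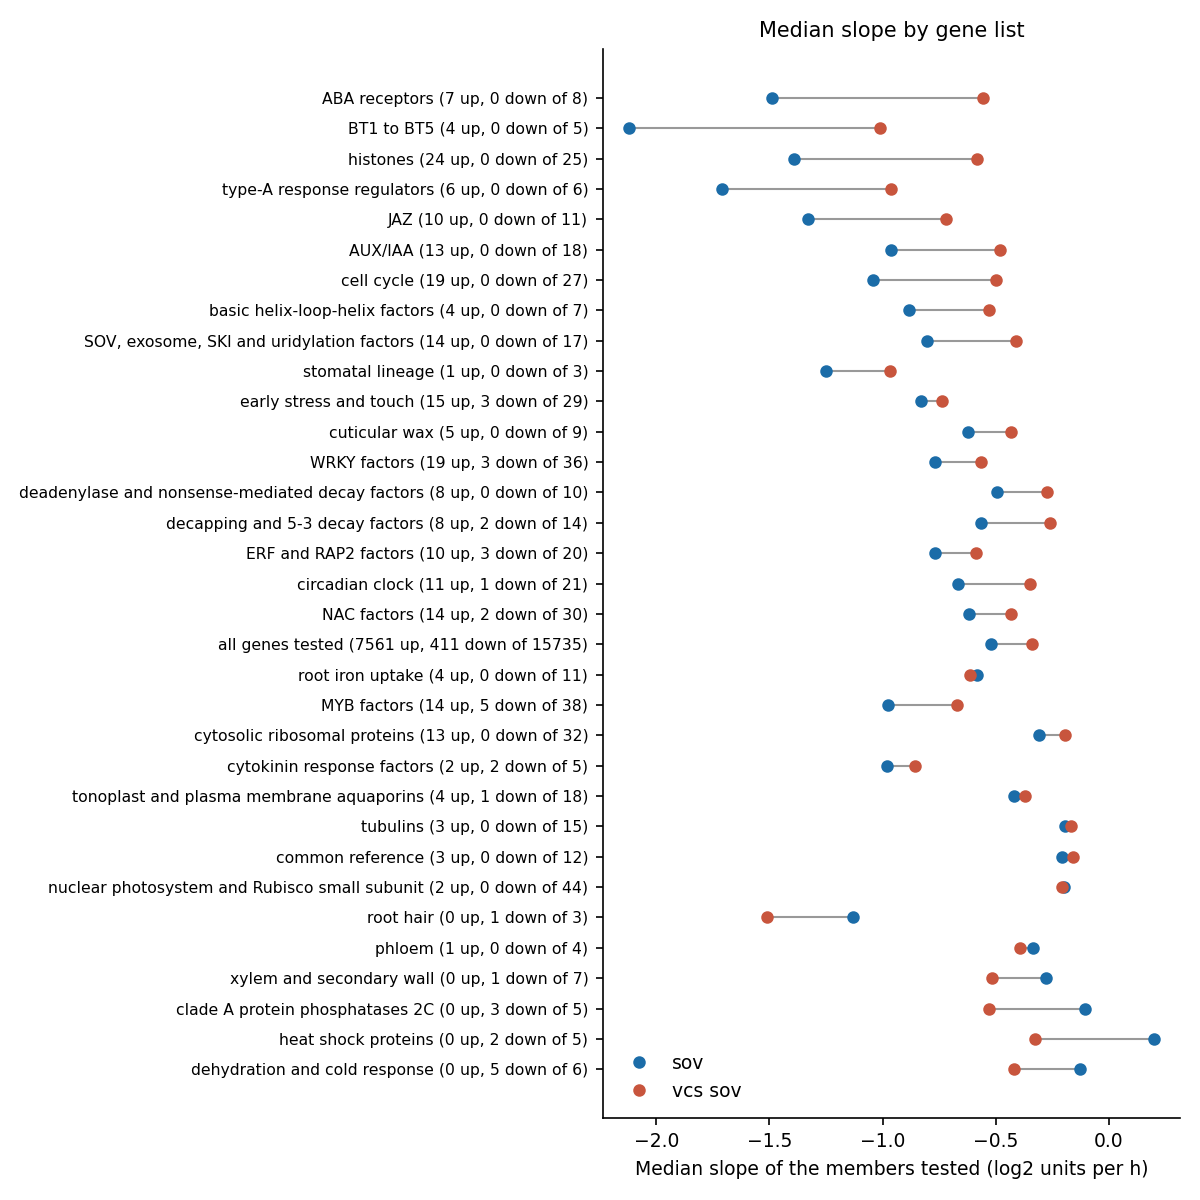
Median slope of the tested members of each gene list with at least 3 of them (x axis, log2 units per h) in sov and vcs sov, ordered by the median of the gene differences (y axis), with the number of members called less negative (up) and more negative (down). The abscisic acid receptors, the BT genes and the histones are at the top with medians of 0.832, 0.823 and 0.66, and the phosphatases 2C, heat shock and dehydration lists are at the bottom with -0.261, -0.351 and -0.369.

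Histone and cell cycle genes were called in the less negative direction, read here against 48.1% of all genes tested. Short-lived genes as a whole had higher shares. It was 85.0% for WT half-lives of 30 to 60 min and 70.8% for 60 to 120 min. Whether these lists exceed other genes of like half-life was not tested. Plant histone mRNAs, unlike most animal ones, carry poly(A) tails. Of 25 tested histone genes 24 rose in slope and none fell, and the list median half-life was 43.3 min in sov and 103.0 min in vcs sov. AT5G65360, a histone H3.1 gene, kept 10.1%, 6.96%, 7.46% and 7.47% at 120 min in sov and 37.2%, 33.1%, 36.7% and 42.9% in vcs sov (slope difference 1.12 ± 0.07, SE; limma adjusted p = 6.4e-07). HTA13, an H2A gene, kept 18.6%, 7.90%, 10.8% and 8.72% against 41.7%, 47.2%, 37.6% and 50.1%. HTB1 and HTB9, H2B genes, rose by 1.01 and 0.93 log2 units per h. The H3.3 genes AT4G40030 (HTR4) and AT4G40040 (HTR5) were slow in sov, with half-lives of 255 and 218 min, and rose by 0.16 and 0.20. HTA8 differed by 0.17 and was not called (adjusted p = 0.17). Near-identical histone copies may share reads.

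Of 27 tested cell cycle genes 19 rose in slope and none fell, where 48.1% of all genes rose. The list median half-life in sov was 57.7 min, and 85.0% of genes with a WT half-life of 30 to 60 min rose. AUR1, a mitotic Aurora kinase, had slopes of -1.001, -1.28, -1.01 and -1.23 in sov and of -0.23, -0.31, -0.40 and -0.26 in vcs sov. Its half-life was 53 min against 199 min (difference 0.83 ± 0.08, SE; limma adjusted p = 6.4e-06). CYCD3;2, a G1 cyclin, went from 58 to 180 min, CYCB1;2 (CYC1BAT), a mitotic cyclin, from 39 to 68 min, and KNOLLE (SYP111), a syntaxin of the cell plate, from 39 to 66 min. CYCB2;2 had a half-life of 38 min in both genotypes, a difference of 0.01 (adjusted p = 0.96). The main cyclin-dependent kinase, CDKA;1, was slow in both, with 325 and 569 min, and was not called.

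Genes of the decay machinery were examined as 3 lists. Of 14 decapping and 5' to 3' decay genes 8 rose in slope, a share near the 48.1% of all genes, and 2, VCS and PAT1H2, fell. LSM1B, a subunit of the LSM1-7 ring that binds shortened tails, kept 35.2%, 30.8%, 30.2% and 31.7% at 120 min in sov and 76.3%, 77.0%, 77.3% and 64.4% in vcs sov (slope difference 0.66 ± 0.06, SE; limma adjusted p = 6.8e-06). LSM1A rose by 0.51 and DCP1, the activator of the decapping enzyme, by 0.50; over 0 to 60 min neither passed (adjusted p = 0.10 and 0.28). DCP2, the decapping enzyme, stood at 9.0 RPM in sov and 244.1 RPM in vcs sov at 0 min, and its difference of 0.22 was not called (adjusted p = 0.080). XRN4 rose by 0.15 (adjusted p = 0.033). DCP5 differed by 0.02 (adjusted p = 0.77).

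Of 17 genes of the 3' to 5' machinery, including SOV, exosome and SKI subunits and uridylation enzymes, 14 rose in slope and none fell. The less negative share was 48.1% over all genes and 70.8% among genes with a WT half-life of 60 to 120 min. The exosome genes RRP4, RRP45a, RRP41 and RRP46 (AT3G46210) rose by 0.61, 0.58, 0.55 and 0.51 log2 units per h; RRP4, RRP45a and RRP46 did not pass over 0 to 60 min, with adjusted p of 0.20, 0.19 and 0.49. SKI2, HEN2 and URT1 were not called. Of 10 deadenylase and nonsense-mediated decay genes 8 rose and none fell. CAF1a, a catalytic subunit of the CCR4-NOT deadenylase, had half-lives of 36.6 and 53.4 min and a difference of 0.52 ± 0.09 (SE; limma adjusted p = 0.00053). It was steep early, at -2.99 log2 units per h over 0 to 60 min in sov and -1.57 in vcs sov, and over 15 to 120 min its difference of 0.061 did not pass (adjusted p = 0.44).

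Clock and early stress genes were called in both directions, with less negative shares near the 48.1% of all genes. Of 21 clock genes 11 rose in slope and 1, EPR1 (RVE7), fell by 0.58; over 0 to 60 min EPR1 did not pass (adjusted p = 0.058). ELF3, a subunit of the evening complex, kept 23.5%, 27.4%, 24.3% and 25.6% at 120 min in sov and 62.8%, 59.0%, 63.0% and 50.8% in vcs sov (slope difference 0.62 ± 0.05, SE; limma adjusted p = 1.8e-06). CCA1, a morning MYB factor, went from 80 to 289 min, whereas its close relative LHY had half-lives of 236 and 303 min and was not called (adjusted p = 0.32). Of 29 early stress and touch genes 15 rose and 3 fell. TCH2, a calmodulin-like protein, went from 38.0 to 94.1 min, and CML38, another, rose by 0.95 log2 units per h. WRKY18, a WRKY factor induced by pathogens, kept 5.67% to 15.3% in sov and 28.2% to 42.3% in vcs sov (difference 0.90 ± 0.08, SE; limma adjusted p = 6.0e-06). CBF2, a cold response factor, rose by 0.90. ZAT6, ERF4 and SZF2 (CZF1) fell, by 0.42, 0.24 and 0.23 log2 units per h.

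Transcription factor families chosen by symbol are read against the 48.1% of all genes called less negative, and most had shares near or below it. Of 36 WRKY genes 19 rose and 3 fell, of 30 NAC genes 14 rose and 2 fell, of 38 MYB genes 14 rose and 5 fell, and of 20 ERF and RAP2 genes 10 rose and 3 fell. Of 7 bHLH genes 4 rose and none fell. MYB36, a factor of endodermal differentiation, rose by 0.97 log2 units per h, ERF73 by 0.91 and NAC083 by 0.77; over 15 to 120 min ERF73 did not pass (adjusted p = 0.059). The 1 SAUR gene tested, SAUR36, rose by 0.56 and did not pass with centring (adjusted p = 0.071). MYB34, a regulator of indole glucosinolates, was the steepest named gene of at least 20 RPM in vcs sov, with slopes of -2.36, -2.42, -2.48 and -2.51 there and of -1.93, -2.09, -1.89 and -2.22 in sov. Over 0 to 60 min its difference was 0.52 (adjusted p = 0.15), opposite to the -0.41 over 120 min. After BT2, the steepest in sov included BBX14, a B-box factor, with half-lives of 25.0 and 34.6 min, GLK2, a factor of chloroplast development, and COL1, a CONSTANS-like factor; they rose by 0.66, 0.94 and 0.76 log2 units per h, and BBX14 did not pass with centring (adjusted p = 0.064). RVE2 and TCP9 were also among the 6 steepest in vcs sov and were not called (differences 0.06 and 0.17; adjusted p = 0.63 and 0.31); over 15 to 120 min RVE2 had -0.25 (adjusted p = 0.049). MYBR1 rose by 0.18 and had -0.11 over 15 to 120 min, and the NAC factor ATAF1 fell by 0.35 and had -0.0049 over 0 to 60 min (adjusted p = 0.99).

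The remaining lists are read against 48.1% less and 2.61% more negative calls over all genes. Among the 44 photosystem and Rubisco small subunit genes 2 rose and none fell, with list median half-lives of 299.3 and 290.8 min. The 2 were PSAD-2 (0.32 ± 0.09) and LHCB4.2 (0.23 ± 0.09, limma adjusted p = 0.048); with centring neither passed, and the second lost its call in 6 of the 8 fits that each left out 1 course. Of 32 cytosolic ribosomal protein genes 13 rose and none fell, of 15 tubulin genes 3 rose, and of 18 aquaporin genes 4 rose and 1 fell. The one that fell, PIP2;4 (-0.16), kept its call in 1 of the 8 fits without a course and had 0.065 over 0 to 60 min. Of 12 genes often used as references in quantitative PCR 3 rose, PEX4 by 0.26, AT2G28390 by 0.24 and AT4G34270 by 0.17 log2 units per h. With centring, none of these 3 passed, and AT4G34270 turned to -0.0072; the latter also kept its call in only 2 of the 8 fits without a course (0.132 to 0.219). Of 9 cuticular wax genes 5 rose, among them CER2 by 0.74 and ABCG12 by 0.42. Of 11 root iron uptake genes 4 rose, NAS4, BTS, OPT3 and HA2, while IRT1 and FRO2, the iron transporter and ferric reductase, had differences of -0.20 and -0.09 and were not called. HA2, called at 0.16, turned to -0.018 with centring and lost its call in 3 of the 8 fits without a course, and OPT3 did not pass then (adjusted p = 0.057). Among organ markers, of 7 xylem genes LAC17 fell, of 3 root hair genes EXPA7 fell, of 3 stomatal genes TMM rose, of 4 phloem genes APL rose (adjusted p = 0.063 with centring), and the 1 meristem gene tested was not called. Over 0 to 60 min LAC17, EXPA7 and APL did not pass (limma adjusted p = 0.48, 0.28 and 0.11).

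The loss of VCS was also compared in the presence of SOV, between vcs and WT, in 48 libraries that share none with the pair above. There 3283 genes (20.9%) had a less negative slope in vcs and 919 (5.84%) a more negative one. The less negative calls of both pairs shared 3023 genes, which is 40.0% of the 7561 and 92.1% of the 3283. The more negative calls shared 185 genes, 45.0% of the 411 and 20.13% of the 919. Opposite calls were made for 106 genes less negative in vcs sov and for 1 gene more negative there. The change from sov to vcs sov exceeded that from WT to vcs for 1460 genes (9.28%) and was below it for 59 (0.375%; limma interaction, adjusted p under 0.05), and the median of the interaction was 0.11 log2 units per h. The total of 1519 was 921 without sov replicate 2, 943 without vcs sov replicate 1 and 890 without vcs sov replicate 3. It was 578 with centring and 3562 on RPM as deposited, and over 0 to 60 min limma called 0 genes, with 1201 at an unadjusted p under 0.05. The main reference genes were chosen on sov and vcs sov alone. With reference genes chosen over all 4 genotypes the total was 1987. The split by direction was counted with the main reference genes only, and the median of the interaction depends on the scaling.

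Named genes differed in this respect. MAKR6 had half-lives of 35.2 min in WT and 35 min in vcs, against 29.5 and 82.4 min in sov and vcs sov, an interaction of 1.31 ± 0.15 (SE; limma adjusted p = 0.00016). PYL6 changed from 33.96 to 51.3 min in the first pair and from 31.2 to 141.3 min in the second (interaction 0.90 ± 0.22, adjusted p = 0.020). ELF3 went from 71.8 to 91.2 min and from 60.5 to 161.2 min (interaction 0.44 ± 0.08, adjusted p = 0.0040). The SOV transcript had half-lives of 82.5 and 75.0 min with the transgene present (interaction 0.40 ± 0.10, adjusted p = 0.020), where its reads may come from both copies. For WRKY18, TCH2 and CIL the interactions of 0.04, -0.04 and 0.36 did not pass. Among the more negative genes, PUB29 had an interaction of -0.66 ± 0.13 (adjusted p = 0.0058), PP2CA of -0.54 (adjusted p = 0.021) and MYB59 of -0.48 (adjusted p = 0.015), while CRF6 and RAP2.4 had positive ones of 0.41 and 0.29 (adjusted p = 0.016 and 0.045), being more negative by 1.13 and 0.92 in vcs than in WT.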

How the data were processed

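Total RNA depleted of ribosomal RNA was sequenced as TruSeq stranded libraries, per the labels' protocols. The submitters' processing notes name the TAIR10 build, TopHat2 2.0.12 with Bowtie2 2.2.3, HTSeq 0.6.1, R 3.1.0, SAMtools and FastQC; annotation, filters and the strand setting of the counting are not given in the sources used here, so overlapping, antisense and near-identical genes are uncertain. The authors deposited RPM values for 28775 genes (133 plastid, 146 mitochondrial), in which 100% of values were whole multiples of 1 read within 0.001 reads, and the counts so obtained from these deposited values served an alternative test. A second deposited table holds group means as a ratio to 0 min, made by the authors. One library, vcs sov replicate 3 at 60 min, had been relabelled after a tube swap, per the labels.

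Per gene and course, a least-squares line of log2(RPM + 0.1) against time in h was fitted to 6 times after scaling each library to 50 reference genes. These were nuclear genes, without the rRNA genes AT2G01010 and AT3G41768, of at least 10 RPM at 0 min with the highest unscaled slopes in both genotypes; they include GSTF6, GSTF7, KIN2 and nuclear copies of mitochondrial genes. Half-lives were taken as 60/(-slope), in min; a fold or slope of a low gene is understated by the pseudocount. Slopes of 4 against 4 courses were compared with limma 3.58.1 (trend, robust) in R 4.3.3, two-sided, Benjamini-Hochberg adjusted at 0.05 over all genes tested; edgeR 4.0.16 was an alternative, and the slope test was tested on simulated data. The simulation held the reference genes flat and changed a small part of the genes. It therefore cannot test the stability of the reference genes or a shift of most genes. The labels call the replicates biological, and libraries of 1 course share a batch of seedlings. Named genes were VCS, SOV and VCR, the 12 largest changes in each direction (symbol, at least 5 RPM, courses not overlapping), the 6 steepest per genotype (at least 20 RPM) and up to 4 called genes per list of 34; other genes are list members named after their values were seen. The genes, lists and tests were chosen with earlier results of these data known. Symbols come from RefSeq for TAIR10.1 (28009 identifiers matched, 10588 with a symbol); its build differs, so no coordinates are given. Coding exons and lengths come from the same annotation. Replicate pairs differed by more than sampling noise in every case. The floor of 3 reads covers counting error only.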

Additional observations from a re-analysis of the deposited data

Results flagged for a closer look

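Among 260 groups of 4 slopes examined for the named genes, 11 held 1 course far from the other 3, by Dixon's test at the level that chance passes in about 1 of 20 groups. In sov, replicate 2 was steeper for IAA2 (-2.10, others -1.86 to -1.83), HTB1 (-1.71, others -1.42 to -1.41) and MYB60 (-1.65, others -1.36 to -1.32), replicate 3 for CBF2 (-2.28, others -1.85 to -1.80), and replicate 1 was shallower for CER2 (-1.36, others -1.55 to -1.52). In vcs sov, replicate 1 was shallower for IAA2 (-1.06, others -1.29 to -1.27), TUA2 (-0.067) and WRKY70 (-0.038) and steeper for RRP41 (-0.75, others -0.51 to -0.50). Replicate 2 was shallower for JAZ10 (-0.51, others -0.63 to -0.62) and replicate 3 for CRF6 (-0.80, others -0.89 to -0.88).

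The slope change from sov to vcs sov differed from that from WT to vcs for 1460 genes in the higher and 59 in the lower direction, by the test of the interaction. This split was counted with the main reference genes only.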

How the results depend on the processing

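The calls were 7972 in all, 7561 less and 411 more negative, with an interaction for 1519 genes and a median difference of 0.18 log2 units per h. Leaving out each course in turn gave 6643 to 7920, 6253 to 7540, 302 to 408, 890 to 1927 and 0.162 to 0.196. With a filter of 10 RPM the counts were 4231, 4058, 173 and 951, over 8438 genes. Over 0 to 60 min they were 3310, 3175, 135 and, for the limma interaction, 0 (1201 genes at an unadjusted p under 0.05). Centring gave 3121 less negative, 3257 more negative and 578 interactions. The more negative count was 732 without the filter on level, 742 on RPM of nuclear genes alone and 704 over 0 to 240 min; the interaction count was 3562 on RPM as deposited and 3010 over 0 to 240 min. edgeR on recovered reads called 8852 less and 566 more negative. The cause of these shifts was not tested beyond the smaller numbers of genes or libraries.

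The main fit did not treat same-numbered courses as pairs. Their deviations correlated at -0.05, 0.19, 0.16 and -0.06 for replicates 1 to 4, and those of differently numbered courses at -0.22 to 0.07. Whether same-numbered courses of the 2 genotypes share a batch was not tested. With the replicate block 7618 were less and 460 more negative, and the median difference of 0.18 had p = 0.125 in the exact paired test, the smallest it allows. Without sov replicate 2 and vcs sov replicate 4, chosen after seeing the data, the median difference was 0.177, where 3 against 3 courses cannot reach 0.05, and the interaction count was 956. Slopes from the authors' deposited group means gave a median difference of 0.22, and all 7561 and 411 called genes kept their sign in the authors' deposited table. Those means come from the same study, genotypes and times on which the genes were called, so the shared sign is not independent evidence.

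Of 3694 values of 129 named genes under the alternatives, 3531 kept direction and call, 138 lost the call, 3 gained it and 19 reversed. The authors' deposited group means give no call. There 126 values, counted as kept, lay within the pooled SD of the course slopes, and 3 more kept direction but moved further. With centring VCR (-0.12), RVE2 (-0.12), MYBR1 (-0.0051), TCP9 (-0.012), HA2 (-0.018), TUA2 (-0.035), GAMMA-TIP (-0.025) and AT4G34270 (-0.0072) reversed. Over 0 to 60 min PP2CA (0.62), CRF6 (0.63), CRF5 (0.76), MYB34 (0.52), ABI2 (0.043) and PIP2;4 (0.065) did. Over 15 to 120 min RVE2 (-0.25) and MYBR1 (-0.11) did. RVE2 also reversed over 0 to 240 min (-0.11) and without sov replicate 3 (-0.0056) or vcs sov replicate 2 (-0.00102). Its difference ranged from -0.0056 to 0.137 in the fits that each left out 1 course. Without both sov replicate 2 and vcs sov replicate 4 it was 0.198. Depth limits genes near 2 RPM, where late levels approach 3 reads.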
